A study of Mus musculus with 6 samples.

Results

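The AP-1 family factors are transcription factors of the Fos, Jun, Atf3 and Batf groups. Here they are 9 genes, Fos, Fosb, Fosl2, Jun, Junb, Jund, Atf3, Batf and Batf3, chosen by name, out of 22271 genes in the deposited count table. All 9 had a row in it. RNA was sequenced from progenitor cells sorted out of mouse bone marrow, namely CD27 low MOP and CD27 high MODP in the labels' terms. The series' title places a progenitor of macrophages and osteoclasts downstream of one that also gives dendritic cells. Each population had 3 libraries, all from C57BL/6JRj mice that the sample titles call WT, with no treatment given. The sources used here do not give the age of the animals, the full sort gate or whether a library came from 1 mouse or a pool. P-values therefore rest on the spread of these 6 libraries, part of which may be technical.

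AP-1 is a dimer of bZIP proteins, which hold DNA with a basic stretch and each other with a leucine zipper. Fos proteins bind DNA only with a partner, commonly a Jun protein, whereas Jun proteins can also pair among themselves. In the marrow, Fos is known as a gene that osteoclasts need: mice without it lack osteoclasts and keep macrophages. Fos, Fosb, Jun, Junb and Atf3 are also early response genes, whose RNA can rise quickly after a stimulus, and the isolation of cells is known to be able to raise it.

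Libraries held 13338577 to 15892640 counts in MOP and 10701425 to 13846749 counts in MODP. Cd27, the sort marker, stood at 4.57, 3.52 and 3.64 CPM in MOP replicates 1, 2 and 3 and at 35.4, 38.9 and 38.7 CPM in MODP (edgeR adjusted p = 2.5e-05), so the libraries followed the sort label; CPM are counts per 1000000, scaled by the TMM method. Kit, Flt3, Csf1r and Mpo, markers of myeloid progenitors, were found in every library. The marker list of mature neutrophils summed to 11701 CPM in MOP replicate 2 and 16752 CPM in MODP replicate 2, against 2172 to 5009 CPM in the other libraries, so replicate 2 stood apart in both groups. Of 12850 genes tested by edgeR's quasi-likelihood test, 2095 were higher in MOP (16.3%) and 1913 were lower (14.9%). Upper-quartile scaling, by contrast, gave 1692 higher and 2452 lower genes.

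RNA of Fos, Fosb, Jun, Junb and Jund was abundant in both populations, whereas Fosl2 ranked 4929 of 12483 genes by CPM per kilobase. Each of these genes stood higher in MOP in every same-numbered pair of libraries. Fos, Fosb, Fosl2, Jun, Junb, Jund and Atf3 had log2 fold changes of 0.37 to 1.11, MOP over MODP, whereas Batf was at -0.18. With group alone in the model, 1 of the 8 tested members passed the test, Fosl2, and 0 were lower. That is 1 of 8 against a background of 31.2% of all tested genes called in either direction. The counts at an unadjusted p under 0.05 were 3 higher and 0 lower. The share of all tested genes at that unadjusted p was not computed, so such counts, here and for the lists below, have no background. DESeq2's Wald test called 3 members higher (Fosl2, Jun and Junb) and 0 lower, beside 2086 higher and 1699 lower over all genes. With the replicate number of the table's columns as a block, which compares each MOP library with the MODP library of the same number, 7 of the 8 tested members were higher and 0 were lower. In that model 21.2% of tested genes were higher and 19.8% lower. The block leaves 2 residual degrees of freedom per gene, against 4 with group alone, and on simulated counts it let through more unchanged genes than its threshold allows, so blocked calls near 0.05 are less certain. Without replicate 2 of both groups, which stood apart by its neutrophil genes, the higher members were 2 with group alone (Fosl2 and Batf3) and 8 with the block. Batf3 failed the filter with all libraries and passed it there through its MOP counts (18 and 16, against 7 and 4 in MODP). Its call therefore adds no support. In blocked fits without replicate 1 or replicate 3 of both groups the higher members were 4 and 6. Over all tested genes, 1493, 3182 and 1806 were higher in blocked fits without replicate 1, 2 and 3 of both groups. With group alone and without replicate 2, 2361 were higher. The ninth member, Batf3, had too few reads to be tested with all libraries. The members took 0.917%, 0.748% and 0.528% of all counts in MOP replicates 1, 2 and 3, and 0.561%, 0.541% and 0.362% in MODP. The lowest share in each group was that of replicate 3.

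**Figure D1:**
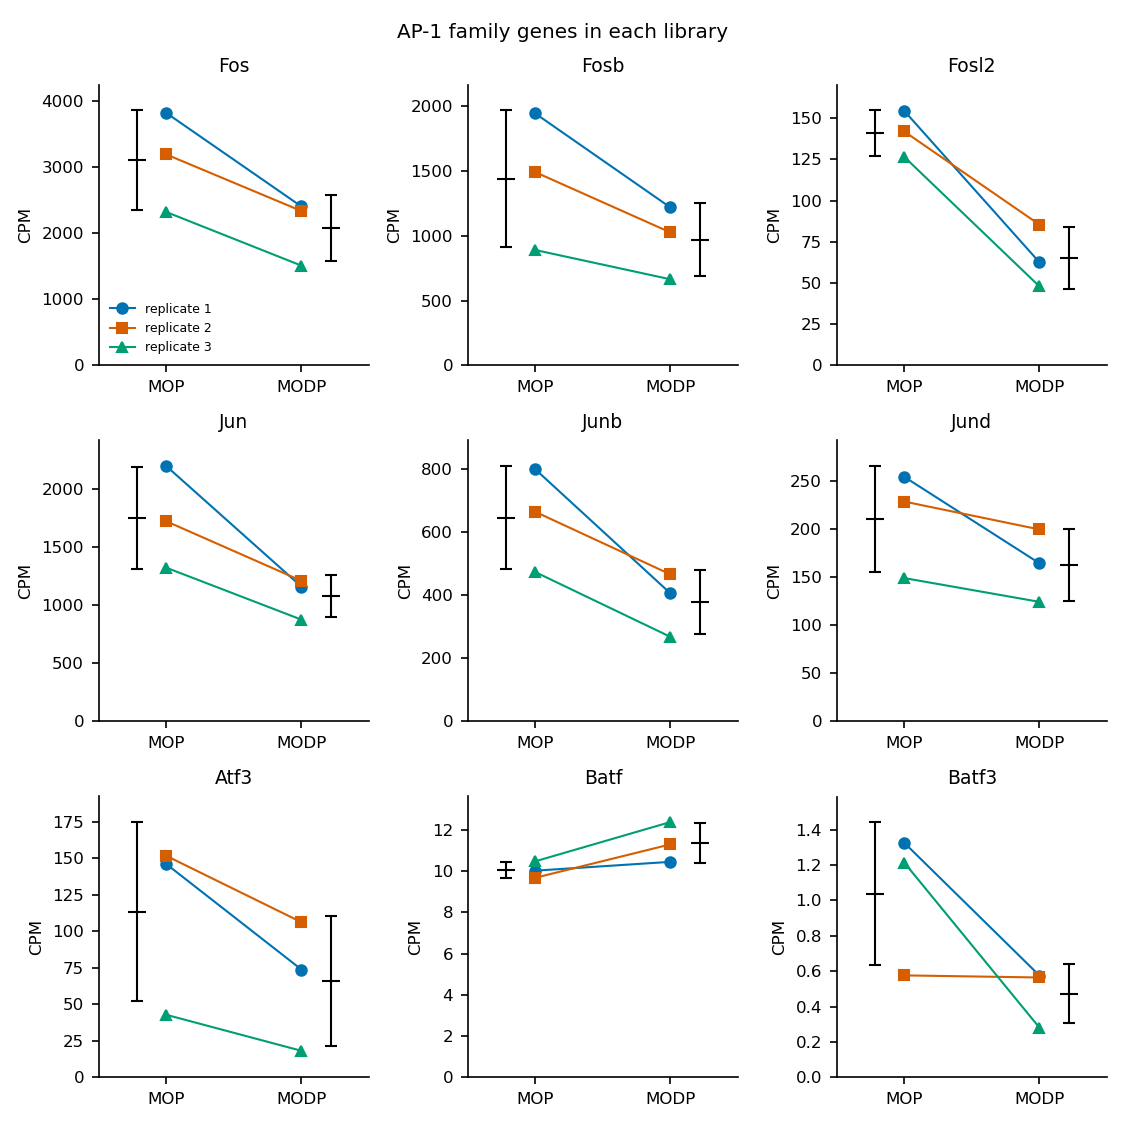
CPM of the 9 AP-1 genes in each library (y axis, from 0), MOP at left and MODP at right of each panel. Lines join libraries with the same replicate number, and black bars are the mean and SD of 3 libraries; Fos, Fosb, Fosl2, Jun, Junb, Jund and Atf3 stand higher in MOP along every line, Batf stands slightly lower in MOP, and Batf3 lies between 0.281 and 1.33 CPM.

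Fos itself, the founding partner of Jun, was the most abundant member and ranked 28 by mean CPM per kilobase of exons among 12483 tested genes with an annotated length. It stood at 3825, 3196 and 2324 CPM in MOP replicates 1, 2 and 3 and at 2408, 2339 and 1512 CPM in MODP. The groups overlapped, because MOP replicate 3 lay below both MODP replicate 1 and MODP replicate 2. Within the same-numbered pairs, however, the ratio of MOP to MODP was 1.59, 1.37 and 1.54. The log2 fold change was 0.58 ± 0.27 (SE) with group alone (edgeR adjusted p = 0.18) and 0.58 ± 0.05 with the replicate block (edgeR adjusted p = 8.9e-05). The size of the difference was thus the same in both fits, and the spread it was set against was not.

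Fosb, a close relative of Fos that is also made as a shortened splice form, behaved alike. Its values were 1945, 1492 and 891 CPM in MOP and 1219, 1026 and 665 CPM in MODP, again with overlap between the groups and the lowest value of each group in replicate 3. The log2 fold change of Fosb was 0.57 ± 0.38 (SE) with group alone (edgeR adjusted p = 0.34) and 0.55 ± 0.05 with the block (edgeR adjusted p = 0.00016). The pairwise ratios were 1.60, 1.45 and 1.34.

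Fosl2 encodes Fra-2, a Fos relative without the strong activating region of Fos. It was much less abundant but had the largest log2 fold change of the tested members. Fosl2 stood at 154, 142 and 127 CPM in MOP and at 62.6, 85.4 and 47.9 CPM in MODP, so every MOP library lay well above every MODP library. Group alone gave a log2 fold change of 1.11 ± 0.22 (SE; edgeR adjusted p = 0.016), and the block gave 1.14 ± 0.16 (edgeR adjusted p = 0.011). The call was lost in the fit that left out MOP replicate 1 and in the one that left out MODP replicate 1 (edgeR adjusted p = 0.056 and 0.064, over a range of 0.0012 to 0.064 for the 6 fits without a library), as it was in the blocked fit without replicate 1 of both groups (edgeR adjusted p = 0.064).

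Jun, which can act as a dimer with itself or with a Fos protein, was the next most abundant member per kilobase after Fos. It was measured at 2200.1, 1724 and 1324 CPM in MOP and at 1161, 1211 and 877 CPM in MODP. The groups did not overlap, although MOP replicate 3 came within a small distance of the upper MODP libraries. The log2 fold change of Jun was 0.69 ± 0.23 (SE; edgeR adjusted p = 0.074) with group alone and 0.68 ± 0.08 with the block (edgeR adjusted p = 0.0015). Jun was called with group alone only in the fit without MOP replicate 3 among the 6 fits that leave out a library (edgeR adjusted p = 0.026). At the Jun locus, 232 exonic bases are shared with the antisense gene Junos in the GENCODE M21 annotation. Junos was measured at 0.834 to 2.75 CPM in MOP and 1.48 to 3.86 CPM in MODP.

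Junb, a Jun relative that often restrains Jun, followed the same order of libraries. Junb stood at 800.1, 665 and 474 CPM in MOP and at 406, 466 and 268 CPM in MODP. The lowest MOP library, replicate 3, lay just above the highest MODP library, replicate 2. Junb was at log2 0.77 ± 0.29 (SE) with group alone (edgeR adjusted p = 0.11) and at 0.77 ± 0.09 with the block (edgeR adjusted p = 0.0018). At the Junb locus, 173 exonic bases are shared with Prdx2 on the opposite strand in the GENCODE M21 annotation. Prdx2 was measured at 133 to 167 CPM in MOP and 122 to 140 CPM in MODP, a narrow range beside that of Junb.

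Jund, the Jun relative that cells tend to make steadily, had the smallest log2 fold change among the higher members. Its CPM were 254, 228 and 149 in MOP and 164, 200 and 124 in MODP, with overlap. Jund was at log2 0.37 ± 0.27 (SE) with group alone (edgeR adjusted p = 0.37) and at 0.36 ± 0.09 with the block (edgeR adjusted p = 0.022). The blocked call was lost without replicate 1 or replicate 3 of both groups (edgeR adjusted p = 0.0501 and 0.060). Jund is uncertain as a measurement, since an antisense gene, Gm11175, which has no row in the count table, covers 877 of its exonic bases. Of the 31-base words of its longest transcript, 50.1% also occur in other genes. Those words were matched on both strands and include words of the antisense gene, so this is not a separate limit.

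Atf3, a stress-induced bZIP factor that can repress as well as activate, had the level that varied most between replicates, relative to its mean. It stood at 146, 152 and 42.9 CPM in MOP and at 73.8, 106 and 18.2 CPM in MODP. Replicate 3 was several times below the other libraries in each group, and the groups overlapped. The ratio of MOP to MODP was nevertheless 1.98, 1.43 and 2.35 in the 3 pairs. The log2 fold change of Atf3 was 0.79 ± 0.85 (SE; edgeR adjusted p = 0.55) with group alone and 0.87 ± 0.15 with the block (edgeR adjusted p = 0.016), and the blocked call was lost without replicate 1 of both groups (edgeR adjusted p = 0.11).

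**Figure D2:**
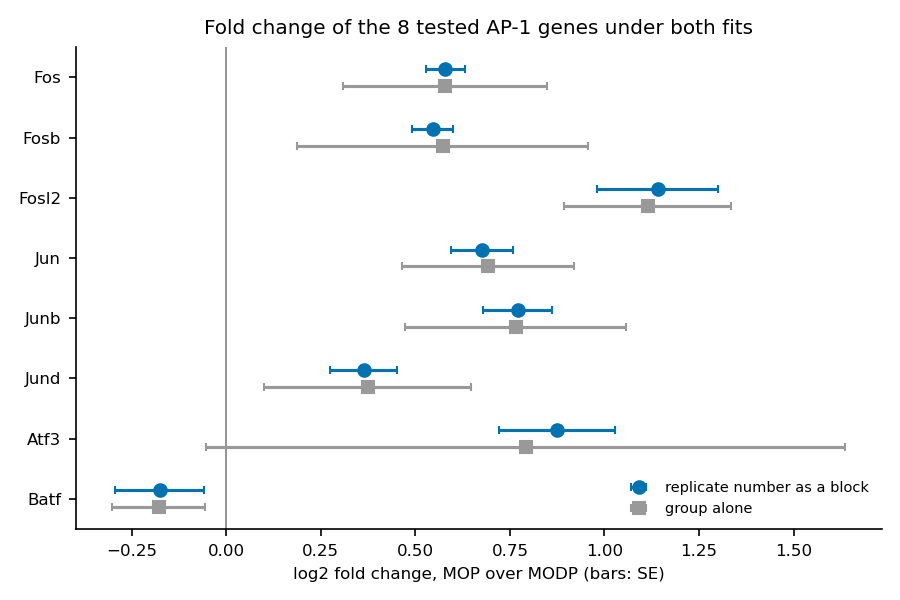
Log2 fold change of the 8 tested AP-1 genes, MOP over MODP, with the standard error (x axis), from the blocked fit (circles) and from group alone (squares). Both fits place each gene at nearly the same fold change; 7 genes lie above 0 and Batf lies below it at -0.18, and the bars of Fos, Fosb, Jun, Junb, Jund and Atf3 are narrower with the block.

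The Batf factors are small bZIP proteins without an activating region that pair with Jun proteins and with IRF4 or IRF8, and of the members Batf alone did not stand higher in MOP. Batf was at 10.01, 9.67 and 10.5 CPM in MOP and at 10.4, 11.3 and 12.4 CPM in MODP, a narrow range with overlap between the groups. Both fits put Batf at log2 -0.18 ± 0.12 (SE), and neither called it (edgeR adjusted p = 0.31 with group alone and 0.27 with the block). Batf3, without which mice lack the CD8-type conventional dendritic cells, had 18, 9 and 16 counts in MOP and 7, 6 and 4 counts in MODP. The ratio of its CPM in MOP to that in MODP was 2.30, 1.02 and 4.32 in the 3 pairs. MOP replicate 2 and MODP replicate 1 both came to 0.576 CPM, the first higher by less than that rounding shows. Tested without a filter on low counts, Batf3 stood at log2 1.13 ± 0.52 (SE) and was not called (edgeR adjusted p = 0.16). In all, every MOP library lay above every MODP library for 4 of the 9 members (Fosl2, Jun, Junb and Batf3). Of these, Batf3 was not tested with all libraries. Fosl2, Jun and Junb, among the 8 tested members, stand beside 23.8% of tested genes in that direction.

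Levels of different genes can be set side by side only per length, here as mean CPM per kilobase of annotated exons. On that scale Fos led, at 1325 in MOP and 887 in MODP, and Jun followed, at 549 in MOP and 340 in MODP. Junb was at 281 in MOP and 165 in MODP, and Fosb was at 231 in MOP and 155 in MODP. Jund was at 126 in MOP and 97.5 in MODP, and Atf3 at 52.7 in MOP and 30.7 in MODP. Fosl2 was at 14.6 CPM per kilobase in MOP and 6.75 in MODP, Batf at 7.15 in MOP and 8.08 in MODP, and Batf3 at 0.650 in MOP and 0.297 in MODP. The order was the same in both populations except that Batf stood above Fosl2 in MODP. The libraries of Junb and Fosb overlapped in both populations, as did those of Fosb and Jund, although within a library Junb stood above Fosb in 5 of 6 and Fosb above Jund in 6 of 6. In MODP the libraries of Atf3 and Batf also overlapped, as did those of Batf and Fosl2, with the gene of higher mean above in 2 of 3 libraries for each. With the length of the longest transcript in its place, Fosb (381 CPM per kilobase) stood above Junb (357) in MOP.

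Counts set against Fos within the same library do not depend on library size or scaling. Per 100 Fos counts, Fosl2 had 4.04, 4.44 and 5.44 counts in MOP and 2.60, 3.65 and 3.17 in MODP, so its share was higher in every MOP library. Junb had 20.9, 20.8 and 20.4 counts per 100 Fos counts in MOP and 16.9, 19.9 and 17.7 in MODP, a small difference without overlap. By contrast, Jun (53.9 to 57.5 in MOP and 48.2 to 58.0 in MODP) and Fosb (38.3 to 50.8 in MOP and 43.9 to 50.6 in MODP) overlapped. Of all other tested genes, 3.28% had a ratio to Fos that was higher in every MOP than in every MODP library, and 33.5% had one that was lower in every MOP library. The ratios are given as values, with no test.

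**Figure D3:**
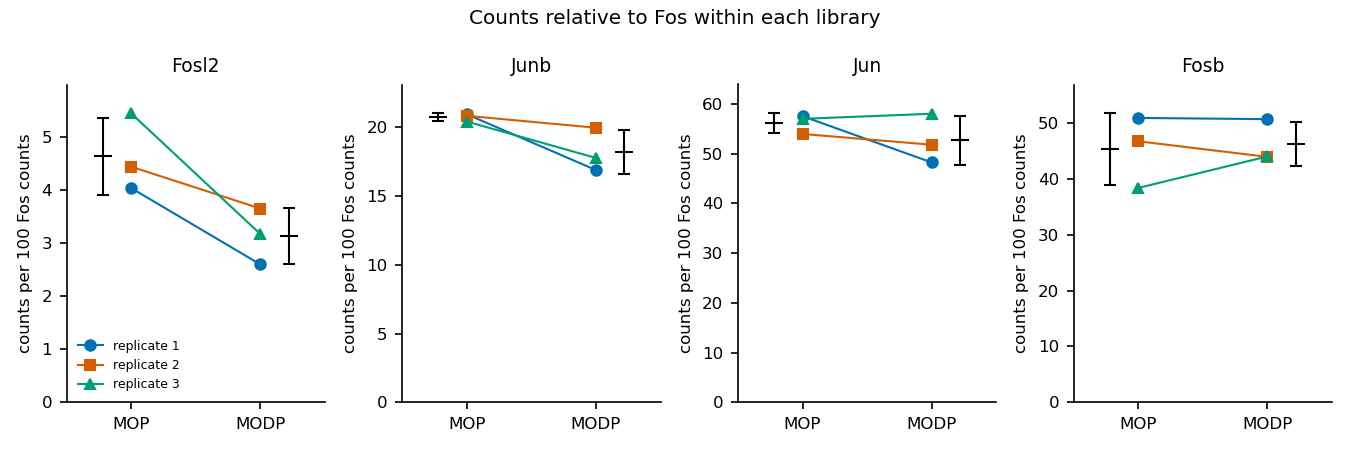
Counts of Fosl2, Junb, Jun and Fosb per 100 Fos counts in each library (y axis, from 0), MOP at left and MODP at right; lines join libraries with the same replicate number and black bars are the mean and SD of 3 libraries. Fosl2 and Junb lie higher in all 3 MOP libraries, and Jun and Fosb overlap.

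The promoters of the members were read from RefSeq windows of build GRCm38.p6, which hold 250 bases before and 50 after each gene's start and matched all 9 members. Most members stood higher in MOP together, so short sites known from AP-1 and ATF/CREB proteins were searched on both strands. The AP-1 site TGACTCA, the full cyclic AMP response element TGACGTCA and the CArG box of serum response factor were in 0 of the 9 windows. Of all 32851 windows, 5.20%, 1.79% and 1.63% hold them. Sites more than 250 bases before the start lay outside the windows, so their absence here does not mean that a gene lacks them. The core TGACGT, chosen after the sequences were seen and overlapping the full element by design, was in those of Fos, Atf3 and Batf, against 7.51% of all windows. TGACATCA, the form of the AP-1 site known in the Jun promoter, was in 1 of the 9 windows, that of Jun. The choice of this site fixed that outcome in advance, so the 3.62% of all windows that hold it are no background for it. The 120 bases before the start are shown for these 4 genes, since they differ in the data (Fos, Jun and Atf3 higher in MOP with the block, Batf not called) while Batf holds the same core as Fos and Atf3. Capitals mark TGACGT (read as ACGTCA from the other strand in Atf3) or TGACATCA.
Fos, chr12:85473770-85473889, plus strand: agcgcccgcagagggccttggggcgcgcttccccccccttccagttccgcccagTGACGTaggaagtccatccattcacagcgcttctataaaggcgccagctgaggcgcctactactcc
Jun, chr4:95052223-95052342, minus strand: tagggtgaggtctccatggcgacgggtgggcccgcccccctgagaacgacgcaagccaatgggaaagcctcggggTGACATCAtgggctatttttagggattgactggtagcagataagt
Atf3, chr1:191183334-191183453, minus strand: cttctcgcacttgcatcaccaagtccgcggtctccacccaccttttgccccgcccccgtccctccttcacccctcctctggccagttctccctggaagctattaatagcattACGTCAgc
Batf, chr12:85686600-85686719, plus strand: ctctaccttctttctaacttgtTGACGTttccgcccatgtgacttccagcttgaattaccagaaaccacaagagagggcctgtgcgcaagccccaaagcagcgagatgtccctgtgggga
In Fos the core begins 66 bases before the start, in Batf 98 and in Atf3 8, and the Jun site begins 45 bases before it.

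Early response and heat shock genes, which can move with Fos and Jun when cells are stimulated or isolated, were measured in the same libraries. The 22 listed genes summed to 5956, 5365 and 4154 CPM in MOP replicates 1, 2 and 3 and to 4246, 4664 and 3329 CPM in MODP, while the 9 members summed to 9336, 7610 and 5343 CPM in MOP and 5506, 5446 and 3525 CPM in MODP. Both sums were lowest in replicate 3 of each group, and both were higher in MOP within every pair. With group alone, 1 of the 22 was higher and 2 were lower, and with the block 12 were higher and 4 were lower. Over all tested genes the shares were 16.3% higher and 14.9% lower with group alone, and 21.2% and 19.8% with the block. The part of cell handling in the AP-1 differences was not tested.

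Klf4, a zinc finger factor of monocytes, was the member of that list higher with group alone. It stood at 531, 418 and 356 CPM in MOP and 174, 149 and 99.4 CPM in MODP, far apart, with a log2 fold change of 1.63 ± 0.26 (SE; edgeR adjusted p = 0.0099). Egr2, an early growth response factor, was lower, at 3.76, 3.52 and 2.88 CPM in MOP and 6.74, 8.09 and 4.64 CPM in MODP (edgeR adjusted p = 0.021). Hsp90aa1, a heat shock chaperone, was lower, at log2 -0.30 ± 0.08 (SE; edgeR adjusted p = 0.026). Among genes chosen after their values were seen, Egr3 and the cytokine feedback gene Socs3 were also lower with the block, at log2 -1.45 and -0.87 (edgeR adjusted p = 0.0015 and 0.00018). Of all 22 listed genes, 12 were higher with the block and 4 were lower, beside 21.2% and 19.8% of all tested genes. Klf6, Ier5 and Dusp1 were among the higher ones, at log2 0.82, 0.54 and 0.42 with the block. Egr1, the best known early response gene, had 407, 241 and 139 CPM in MOP and 355, 302 and 188 CPM in MODP and did not pass either test (edgeR adjusted p = 0.91, and 0.43 with the block). The inducible chaperone gene Hspa1b set replicate 3 apart, at 107 CPM in MOP replicate 3 and 88.5 CPM in MODP replicate 3, against 8.65 to 13.1 CPM in the other 4 libraries. In fits with group alone that left out a library, the lower genes were 0 without MOP replicate 1 or MODP replicate 1, and 1 without MOP replicate 2, MOP replicate 3 or MODP replicate 3. Without replicate 2 of both groups, 0 were higher.

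**Figure D4:**
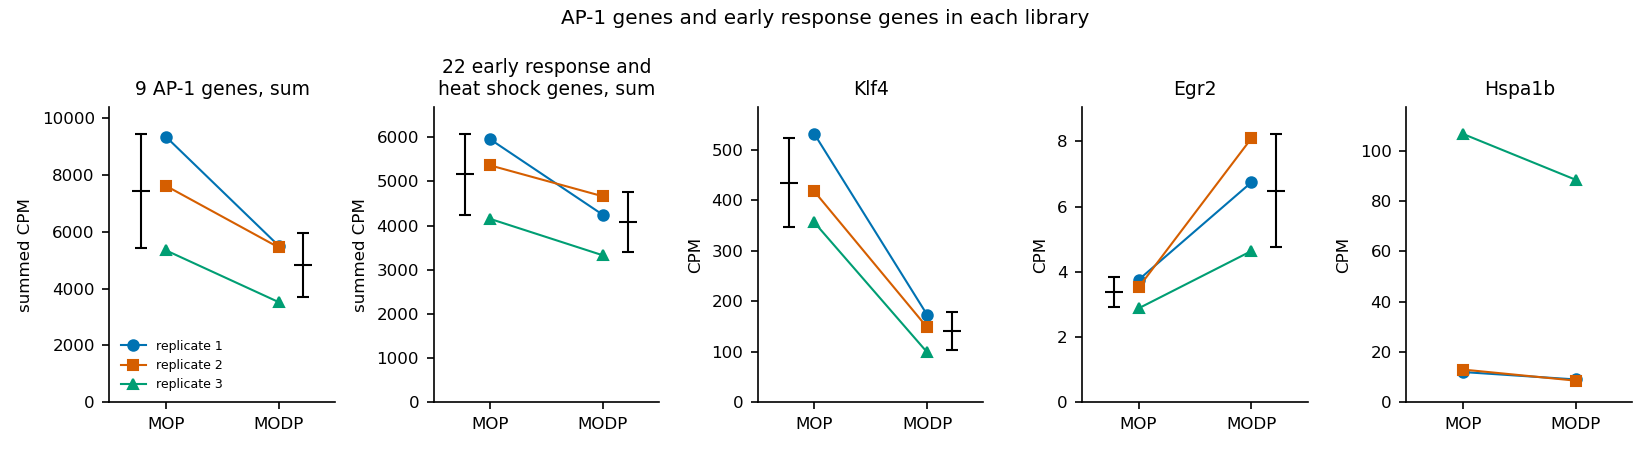
Summed CPM of the 9 AP-1 genes and of the 22 early response and heat shock genes, and CPM of Klf4, Egr2 and Hspa1b, in each library (y axes, from 0), MOP at left and MODP at right. Lines join libraries with the same replicate number and black bars are the mean and SD of 3 libraries (not drawn for Hspa1b); replicate 3 is lowest in both sums and highest for Hspa1b at 107 and 88.5 CPM.

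Genes whose levels over the 6 libraries were most like those of a member were ranked by Pearson's r of log2 CPM among 9039 genes with a mean of at least 10 CPM. Nearest to Fos were ENSMUSG00000085644, which has no symbol in the annotation used (r = 0.997), Zfp36, which encodes an RNA decay factor (r = 0.995), and Klf16 (r = 0.993). Nearest to Jun were Zfand6 (r = 0.996), ENSMUSG00000085607 (r = 0.995) and the autophagy gene Becn1 (r = 0.991). Nearest to Atf3 were Cdkn1a, a cell cycle inhibitor gene, Ptger4, a prostaglandin receptor gene, and Mdm2, which encodes a ligase for p53 (r = 0.996, 0.996 and 0.993). Nearest to Batf were Rbm8a, Zfp451 and Zfp715 (r = 0.994, 0.980 and 0.980). These genes were picked for their r, and the 6 libraries share groups and pairs, so the values describe likeness alone.

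Among genes that feed into AP-1, more were higher than lower in MOP. Of 29 kinases and promoter factors upstream of Fos and Jun, MOP was higher for 13, lower for 1 and not called for 15, beside 16.3% and 14.9% of all tested genes. The median log2 fold change of the list was 0.15, against -0.01 over all tested genes. Map2k1, the MEK1 kinase above ERK, stood at 126, 128 and 128 CPM in MOP and 88.0, 95.8 and 92.2 CPM in MODP, a clear gap (edgeR adjusted p = 0.00063). Mrtfa, a coactivator of serum response factor, was higher by log2 0.60 ± 0.07 (SE; edgeR adjusted p = 0.00094). The lower gene was Elk3, a repressing partner of serum response factor, at log2 -0.48 ± 0.07 (edgeR adjusted p = 0.0018). The higher genes were 7 without MOP replicate 1 and 8 without MODP replicate 3, and the lower genes were 2 without MODP replicate 2.

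None of the other bZIP relatives was called with group alone: by edgeR's test 0 of 12 tested passed in either direction, 0 by DESeq2, and at an unadjusted p under 0.05 the counts were 2 higher and 2 lower. The most abundant, Atf4, the stress response factor, was at 287, 296 and 274 CPM in MOP and 272, 289 and 270 CPM in MODP. With the block, Atf1 and Atf6 were higher, at log2 0.17 and 0.15, and Atf2 and Jdp2 were lower, at -0.14 and -0.34. Over all tested genes the shares were 16.3% higher and 14.9% lower with group alone, and 21.2% and 19.8% with the block. Upper-quartile scaling gave 1 lower gene with group alone, and 0 higher and 3 lower with the block. Jdp2, a Jun-binding repressor, was at 24.3, 32.8 and 25.3 CPM in MOP and 30.1, 41.9 and 32.3 CPM in MODP.

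Among 12 genes that limit or modify Fos and Jun, MOP was higher for 2 and lower for 1, with a median log2 fold change of -0.01. The share of higher genes was close to that over all tested genes (16.3%) and the share of lower genes was under it (14.9%). Tsc22d3, which encodes the AP-1 binding protein GILZ, was higher at 149, 133 and 140 CPM in MOP, against 85.8, 107 and 81.7 CPM in MODP (edgeR adjusted p = 0.0032). The deacetylase gene Sirt1 was higher by log2 0.24 ± 0.07 (SE; edgeR adjusted p = 0.039), and Zfp36l2, an RNA decay factor gene, was lower, at log2 -0.35 ± 0.06 (edgeR adjusted p = 0.0027). With the block 3 were higher, Zfp36 among them (log2 0.64, edgeR adjusted p = 0.00012), and 3 were lower, beside 21.2% and 19.8% of all tested genes. The split depended on the scaling: upper-quartile scaling gave 1 higher and 3 lower with group alone. The higher genes were also 1 in each fit that left out MOP replicate 1 or 2 or MODP replicate 1 or 3, and the lower genes were 3 without MODP replicate 2 and 2 without MOP replicate 3.

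Of 10 partners of Batf factors and genes of the dendritic cells that need Batf3, edgeR called 2 higher in MOP and 0 lower, beside 16.3% and 14.9% of all tested genes, DESeq2 called 2 higher and 1 lower, and at an unadjusted p under 0.05 edgeR's counts were 4 and 1. Zbtb46, a factor of conventional dendritic cells, was higher by log2 1.68 ± 0.29 (SE; edgeR adjusted p = 0.0036) and the integrin gene Itgae by 1.13 ± 0.32 (edgeR adjusted p = 0.027). With the block 5 were higher, among them Irf8 at log2 0.55 (edgeR adjusted p = 0.00017), and 1, Cd8a, was lower, beside 21.2% and 19.8% of all tested genes. Cd8a, which T cells also express, had 6, 10 and 5 counts in MOP and 14, 85 and 20 counts in MODP, so MODP replicate 2 was far above the rest. Markers of T and NK cells were lower in MOP too, and their part in the difference of Cd8a was not tested. In each fit that left out MOP replicate 1 or 3 or MODP replicate 2 or 3, 1 gene was higher, and in each that left out MODP replicate 1 or 2, 1 was lower.

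Genes of osteoclasts, the cells that need Fos, were detected in part. Of the 12 listed, 11 had a row and 6 were tested: Itgb3, Tnfrsf11a and Acp5 were higher, at log2 0.89, 1.12 and 0.96 (edgeR adjusted p = 0.00069, 0.018 and 0.042), beside 16.3% of all tested genes, and 0 were lower, also at an unadjusted p under 0.05 and by DESeq2. The fusion genes Dcstamp and Ocstamp had at most 2 counts in any library. In each fit that left out MOP replicate 1 or MODP replicate 1 or 3, 1 gene of the osteoclast list was higher.

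Genes with known AP-1 sites in several cell types included the largest log2 fold change of the 7 lists, that of Il6. MOP was higher for 6 of the 15 tested genes and lower for 2, beside 16.3% and 14.9% of all tested genes. With the block MOP was higher for 11 and lower for 2, beside 21.2% and 19.8%. Il6, an inflammatory cytokine gene, stood at 18.1, 13.8 and 12.4 CPM in MOP and at 1.15, 1.41 and 0.422 CPM in MODP, a log2 fold change of 3.92 ± 0.35 (SE; edgeR adjusted p = 0.00039). Ccl2, a chemokine gene of monocytes, was higher by log2 1.72 ± 0.35 (edgeR adjusted p = 0.012), and Vim, which encodes vimentin, by 1.04 ± 0.10 (edgeR adjusted p = 0.00052). The metallothionein gene Mt1 was lower, at log2 -0.48 ± 0.09 (edgeR adjusted p = 0.0056), as was the cyclin gene Ccnd1, at -0.50 ± 0.14 (edgeR adjusted p = 0.026). The median log2 fold change of the list was 0.69. The summed markers of basophils and mast cells, cells that can make Il6 and Ccl2, were also higher in every MOP library than in any MODP library, and their part in these differences was not tested. Leaving out any of the libraries other than MODP replicate 2 left 1 lower gene.

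**Figure D5:**
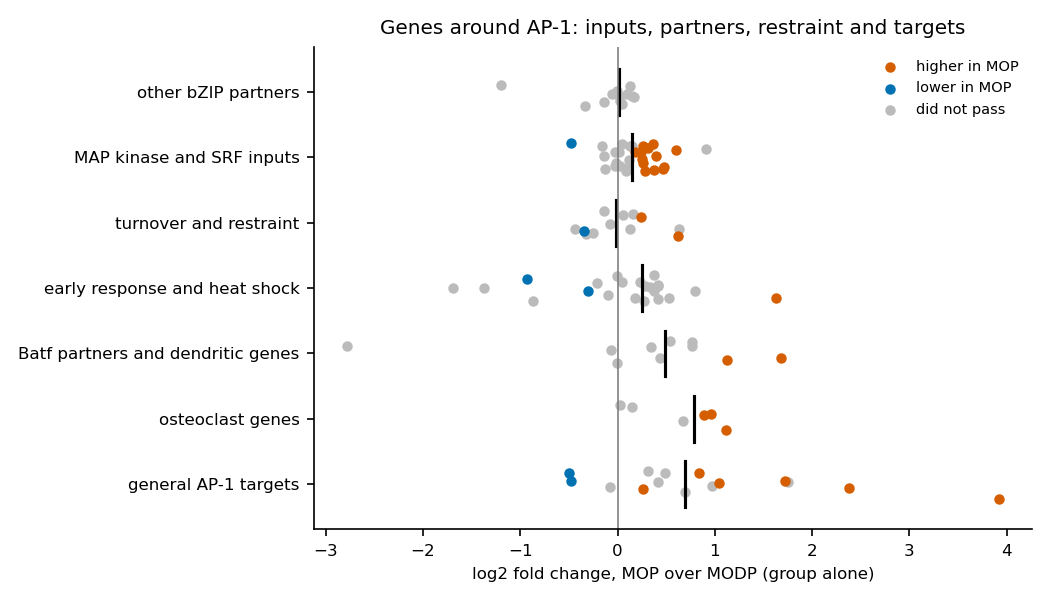
Log2 fold change, MOP over MODP, of each tested gene on the 7 lists around AP-1 (x axis), from the fit with group alone; vertical jitter has no meaning and black lines are list medians. Among the kinase and promoter factor inputs 13 genes are higher and 1 is lower, and Il6 is the point farthest to the right, at 3.92.

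Marker lists of other cell types in the marrow were measured too, and fewer cells of a type cannot be told apart from less RNA per cell in such bulk samples. Over all tested genes, 16.3% were higher in MOP and 14.9% lower with group alone, and 21.2% and 19.8% with the block. Of the 8 basophil and mast cell markers, 7 were higher in MOP with group alone and 3 with the block. These 8 markers summed to 3152 to 5001 CPM in MOP and 513 to 1086 CPM in MODP, with no marker at 0 in all libraries. Of the 9 T and NK cell markers, 6 were lower with group alone and 9 with the block, and they summed to 68.0 to 110 CPM in MOP and 234 to 303 CPM in MODP. Of the 5 erythroid markers, 3 were higher in both fits, with sums of 116 to 207 CPM in MOP and 47.6 to 176 CPM in MODP. Of the 10 neutrophil and 5 B cell markers, 0 passed edgeR's test in either direction with group alone, and 1 B cell marker, Pax5, was lower with the block; B cell markers summed to 8.17 to 39.0 CPM in MOP and 8.43 to 75.2 CPM in MODP. Fos, Jun and Atf3 were lowest in replicate 3 of each group; the basophil sum of that replicate was the highest of the MOP libraries (5001 CPM) but the lowest of the MODP libraries (513 CPM). The part of these cells in the differences of the AP-1 genes was not tested.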

How the data were processed

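Total RNA of progenitors sorted by flow cytometry from bone marrow was extracted with TriZol and made into TruSeq RNA libraries, per the labels' protocols. The authors deposited raw counts of reads per Ensembl gene, whole numbers with no normalization. TopHat 1.4 and HTSeq are named in the submitters' processing notes. The sources used here give no genome build, annotation or strand setting, so a gene and its antisense partner cannot be told apart by their reads. Symbols came from a table matched by gene identifier (20840 matched, 1431 did not).

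Counts were filtered with filterByExpr, scaled by TMM and tested with edgeR 4.0.16 (quasi-likelihood, robust, two-sided, group as the sole factor, MOP over MODP) in R 4.3.3. Benjamini-Hochberg adjustment ran over all genes tested in a fit, at a threshold of 0.05: 12850 with all libraries and the filter, 22271 in the fit without a filter, and other numbers where libraries were left out. DESeq2 1.42.0, other scalings and filters, a replicate block and fits without libraries were alternatives. On simulated counts with known changes, the fits recovered the fold changes, and unchanged genes did not reach an unadjusted p under 0.05 much more often than that rate. However, unchanged genes made up a larger share of the calls than the threshold of 0.05 allows, and a larger share with the block than without it. Counts for the fit with group alone were simulated without differences between replicates, unlike the real libraries, so they cannot vouch for that fit here. A stricter limit set at first for that share was not met by the blocked fit and was dropped, so adjusted p-values of blocked fits are too small to be read at face value near the threshold.

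The sample titles call the first and last library of each group WT1, whereas the column names number them 1, 2 and 3; columns were matched to samples by leading number and ending. Deviations from group means correlated at 0.59, 0.61 and 0.51 between same-numbered columns and at -0.44 to 0.04 otherwise, over 9335 genes, so the numbers were taken as pairs. No library repeated another within sampling noise (chi-square per degree of freedom 7.35 to 34.7).

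Members and lists were chosen with earlier results of these data known. All 9 members are named; of each list, up to 4 called genes by smallest adjusted p or, with none called, the most abundant, except 1 gene that is not reported here. Other named genes were chosen after their values were seen. Exon lengths and 31-base words came from GENCODE M21; promoters are RefSeq's.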

Additional observations from a re-analysis of the deposited data

How the results depend on the processing

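Over 18 alternatives, of which 5 were chosen after seeing the data, each tested member kept the sign of its log2 fold change, and 0 members were lower in any of them. The count of higher members, 1 with group alone, was 3 with DESeq2, 2 without replicate 2 of both groups and 0 to 2 in the 6 fits without a library. With the replicate block it was 7, also under upper-quartile scaling (7) and DESeq2 size factors (7). In blocked fits without replicate 1, 2 or 3 of both groups it was 4, 8 and 6. Batf3 passed the filter, through its MOP counts, and the test in the fit that gave 8, as with group alone without replicate 2. Those counts therefore do not cover the same tested members as the others. Blocked fits of 2 pairs have 1 residual degree of freedom per gene, so their p-values rest mostly on the spread shared across genes. Of all genes, 4008 were called, 2317 to 4799 without a library (fewest without MOP replicate 1), and 2660, 6117 and 3391 in blocked fits without replicate 1, 2 or 3. The counts of members in those blocked fits rose and fell with these totals. With upper-quartile scaling in the blocked fit, 2260 genes were higher and 3186 lower. The cause was not tested. Fosb and Junb changed order per kilobase with the length of the longest transcript (231 and 381 for Fosb, 281 and 357 for Junb, in MOP). Depth limits Batf3 most, with 4 to 18 counts a library.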
